A study of Mus musculus with 48 samples.

Results

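Ucp1, Ucp2 and Ucp3, the genes of the mouse uncoupling proteins, were followed in every RNA-seq library of the series. The 3 genes were taken by symbol from the 55450 genes counted, and each symbol matched exactly 1 gene in both count tables. RNA came from preadipocytes isolated from the inguinal white fat depot (iWAT) at days 0, 3, 6 and 9 of an induced conversion into brown-like adipocytes, and from mouse embryonic fibroblasts (MEFs) at days 0, 4, 8 and 12 of differentiation into adipocytes. Cells were wild type (WT, C57BL/6) or came from mice of that strain lacking both Hmgn1 and Hmgn2 (Hmgn1-/- and Hmgn2-/-, named DKO), which encode chromatin proteins that bind nucleosomes. There were 3 WT and 3 DKO libraries for each cell type and day, 48 in all. The study calls its RNA-seq replicates biological. The labels do not tie libraries to separate mice, embryos or cultures, so p-values measure the spread between these libraries. Preadipocytes were isolated from adult mice and grown on collagen, and MEFs were isolated from embryos. WT and DKO cells of both kinds received the same differentiation medium (insulin at 0.5 μg/ml, dexamethasone at 5 μM, IBMX at 0.5 mM, T3 at 1 nM and rosiglitazone at 1 μM), preadipocytes for 4 days and MEFs for 8 days, followed by insulin and T3 alone for 4 days. Rosiglitazone activates PPARγ and T3 is thyroid hormone, so the WT controls carry the same inducers as the DKO cells. The change to insulin and T3 alone falls between days 3 and 6 in preadipocytes and between days 8 and 12 in MEFs. Over those steps time and the change of medium cannot be told apart. The deletions are present in every cell of the animal from the germ line on, so they are not restricted to adipocytes.

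Uncoupling proteins are carriers of the SLC25 family in the inner mitochondrial membrane. UCP1 lets protons return to the matrix without making ATP, which releases the energy of fatty acid oxidation as heat, and it is the defining protein of brown and brown-like adipocytes. Its transcription is driven by PPAR receptors with their PGC-1 coactivators, by thyroid hormone receptors, and by β-adrenergic signalling through cyclic AMP. UCP2 is found in many tissues and is abundant in macrophages and other immune cells, and UCP3 is found mainly in skeletal muscle and brown fat, where it accompanies fatty acid use. Neither is known for heat production of the kind carried out by UCP1.

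On the mm10 assembly (GENCODE M21 annotation), Ucp1 (ENSMUSG00000031710.4) lies on chromosome 8 from 83290352 to 83298452, and Ucp2 (ENSMUSG00000033685.13) and Ucp3 (ENSMUSG00000032942.14) lie side by side on chromosome 7, from 100493337 to 100502020 and from 100472990 to 100486432. All 3 are protein-coding and on the plus strand, and 6.90 kb separate the end of Ucp3 from the start of Ucp2. Their annotated exons, merged over 1 transcript of Ucp1, 11 of Ucp2 and 4 of Ucp3, cover 1636, 6989 and 3135 bases. The upstream sequences are shown because Ucp1 and Ucp3 were at or near 0 in undifferentiated cells and Ucp2 was not. They hold the 250 bases before the RefSeq start of each gene (GRCm38.p6, plus strand), at chr8:83290098-83290347, chr7:100493108-100493357 and chr7:100472741-100472990, with each AGGTCA, the core element bound by many nuclear receptors, in capitals.
Ucp1: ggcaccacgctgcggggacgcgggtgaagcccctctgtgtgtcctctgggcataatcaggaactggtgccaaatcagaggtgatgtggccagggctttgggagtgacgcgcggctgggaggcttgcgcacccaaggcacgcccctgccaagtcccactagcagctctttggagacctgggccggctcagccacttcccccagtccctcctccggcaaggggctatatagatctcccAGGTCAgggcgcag
Ucp2: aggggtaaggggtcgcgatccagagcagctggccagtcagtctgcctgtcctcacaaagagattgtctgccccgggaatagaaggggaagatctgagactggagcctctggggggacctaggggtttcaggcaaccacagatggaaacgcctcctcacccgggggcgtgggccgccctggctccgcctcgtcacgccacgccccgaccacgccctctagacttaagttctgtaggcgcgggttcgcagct
Ucp3: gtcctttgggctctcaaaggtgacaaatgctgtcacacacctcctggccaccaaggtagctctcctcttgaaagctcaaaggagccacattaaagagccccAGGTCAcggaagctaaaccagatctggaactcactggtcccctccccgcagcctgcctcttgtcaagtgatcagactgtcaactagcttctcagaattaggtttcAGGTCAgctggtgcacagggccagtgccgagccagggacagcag
In the RefSeq windows of 300 bases (250 before to 50 after the start), searched on both strands, AGGTCA occurred in Ucp1 at 1 place (14 bases before the start), in Ucp3 at 2 places (149 and 44 bases before it), and in no place of Ucp2. Of 32817 mouse promoter windows of the same length, 16.3% held it. GGGCGG, a GC box, occurred 2 times in Ucp2 and in neither of the others (35.6% of windows hold it), and TGACG, which overlaps cyclic AMP response elements, occurred at 1 place in each of the 3 (20.8%). CCAAT (37.4%), TATAAA (13.6%) and CACGTG (7.1%) occurred in none of them. The Ucp2 window held 21 CpG dinucleotides, the Ucp1 window 15 and the Ucp3 window 5, against a median of 7, and their GC contents were 64.3%, 64.7% and 55.0% (median 52.7%). Letter matches of this kind are a description of the windows and no record of binding.

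The coding sequences of 921 (Ucp1), 927 (Ucp2) and 924 bases (Ucp3) were close enough to ask whether reads could be shared. Ucp2 and Ucp3 were identical at 75.8% of aligned bases, Ucp1 and Ucp3 at 66.2% and Ucp1 and Ucp2 at 65.7%. The longest identical runs are shown because they are shorter than a read of 50 bases.
Ucp2 and Ucp3, 24 bases: aatgccattgtcaactgtgctgag
Ucp1 with Ucp2 and with Ucp3, 17 bases: attggcctctacgactc
No stretch of 50 bases of an annotated Ucp1 or Ucp3 transcript occurred in a transcript of another gene. In Ucp2, 256 of 7258 such stretches (3.53%) occurred in Dnajb13, which overlaps the 3′ end of Ucp2 on the opposite strand. The deposited counts were whole numbers in all 48 libraries for Ucp1 and Ucp3, and were not whole in 4 of 48 for Ucp2. The antisense gene Gm10603 overlaps Ucp3, and the libraries were strand-specific by the study's methods, but the strand setting of the counting is not given in the sources used here.

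Each library held between 18962483 and 36006696 counts (median 23978863 over preadipocytes). Hmgn2 had at most 10 counts in a DKO preadipocyte library and at most 3 in a DKO MEF library, against at least 744 and 1046 in WT libraries. Hmgn1 kept 1571 to 3160 counts in DKO preadipocytes (WT 1542 to 5184) and 1748 to 3493 in DKO MEFs (WT 2457 to 6120), so counts over the whole gene do not check that deletion. The summed level of 12 adipocyte markers rose from 188 to 474 CPM (counts scaled to a common library size) in WT preadipocytes of day 0 to between 29600 and 31000 CPM at day 9, and that of 11 preadipocyte or fibroblast markers was 13500 to 14000 CPM at day 0 and 5170 to 5820 CPM at day 9. In MEFs, adipocyte marker sums of consecutive days crossed: WT replicate 1 of day 4 (6060 CPM) lay above WT replicate 2 of day 8 (3750 CPM), and DKO replicate 3 of day 4 (7790 CPM) above DKO replicate 3 of day 8 (4420 CPM). Leaving out any 1 of these 4 libraries changed no call on the 3 genes. It reversed some steps and changes of the DKO effect that were not called, such as the Ucp3 step of DKO MEFs from day 0 to day 4 (-1.34 without DKO replicate 3 of day 4, edgeR adjusted p = 0.562). Each such refit kept the other library of the crossed pair, so it cannot show the results without the crossing. From day 4 to day 8, 0.406% of genes were called in WT MEFs and 0.341% in DKO MEFs. From day 0 to day 4 these shares were 31.6% and 28.3%. The reason for the crossing was not tested.

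Ucp1 and Ucp3 were at or near 0 before differentiation and appeared with it, whereas Ucp2 was present in all 48 libraries. In preadipocytes the first large rise of Ucp1 and Ucp2 was between days 3 and 6, and that of Ucp3 continued to day 9. In MEFs Ucp2 was already high at day 0, Ucp3 rose at day 12, and Ucp1 did not exceed 2.05 CPM in any library. Levels here are CPM scaled by the trimmed mean of M values (TMM) over all 48 libraries, and they are not divided by gene length.

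**Figure D1:**
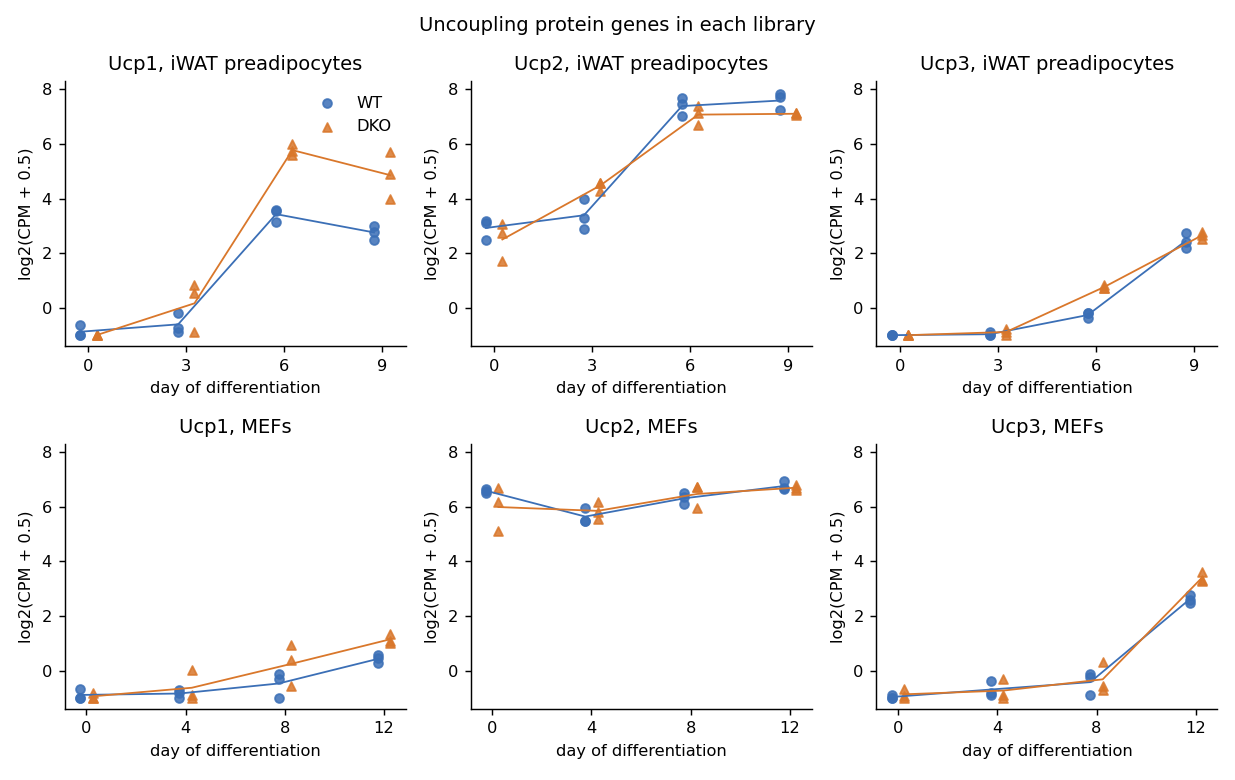
Level of each uncoupling protein gene (log axis, CPM with 0.5 added) against day in preadipocytes and MEFs, with 1 point per library and lines through the means of 3 WT or 3 DKO libraries. Ucp1 of DKO preadipocytes lies above WT at days 6 and 9, while Ucp2 of MEFs stays in 1 band from 34.3 to 121 CPM.

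Ucp1 rose in WT preadipocytes from traces to a level near 10 CPM at day 6, and in DKO preadipocytes to a level 5.19 times as high. At day 0 its counts were 0, 0 and 3 in the WT libraries and 0 in each DKO library, and a total of 0 over the group allows up to 3 counts. At day 3 the WT libraries held 1, 2 and 10 counts (0.0485, 0.096 and 0.37 CPM) and the DKO libraries 1, 22 and 31 counts (0.0372, 0.967 and 1.29 CPM), so the genotypes overlapped through 1 DKO library. At day 6 the WT libraries stood at 8.4, 11.3 and 11.4 CPM and the DKO libraries at 47.6, 62.7 and 53.2 CPM, with every DKO library above every WT library, as for 23.4% of genes. At day 9 the WT libraries stood at 5.14, 7.45 and 6.42 CPM and the DKO libraries at 29.3, 15.2 and 51.2 CPM, again without overlap but with a wide spread among DKO libraries (31.9 ± 18.1 CPM, SD, n = 3).

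The difference between genotypes was tested with edgeR's quasi-likelihood test on the 6 libraries of a day, with Benjamini-Hochberg adjustment over all genes tested, and a gene was called at an adjusted p under 0.05 and a fold of at least 1.5. Ucp1 was higher in DKO preadipocytes at day 6 by 2.38 ± 0.14 on the log2 scale (SE; 5.19-fold, edgeR adjusted p = 0.00018), where 5.03% of all genes tested were called higher and 11.6% were called in either direction. At day 9 it was higher by 2.29 ± 0.44 (4.88-fold) and was not called (edgeR adjusted p = 0.0518), in a comparison that called 1.24% of genes. Without DKO replicate 2, the library of 15.2 CPM, the difference was 2.62 and was called (edgeR adjusted p = 0.00707). With all libraries it was called by DESeq2 (2.29, adjusted p = 4.25e-07) and in 1 fit over all days (2.32, edgeR adjusted p = 0.0106). Over the alternatives the adjusted p ran from 4.25e-07 to 0.205. Libraries of both genotypes did not overlap, with DKO higher, for 21.4% of genes at day 9. At day 3, where Ucp1 had too few counts for the fit of that day, 1 fit over all days gave 1.93 ± 0.92 (edgeR adjusted p = 0.348), which is not a call.

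Adipocyte markers were read in the same libraries. From day 6 to day 9 their mean sum went from 25900 to 30300 CPM in WT and from 35700 to 41000 CPM in DKO. Mean Ucp1 went from 10.4 to 6.34 CPM in WT and from 54.5 to 31.9 CPM in DKO. The summed level of the 12 markers was higher in DKO than in WT preadipocytes 2.51-fold at day 3 (4330 to 6140 against 818 to 3180 CPM), 1.38-fold at day 6 (32000 to 39300 against 23900 to 28800 CPM) and 1.36-fold at day 9 (37400 to 46500 against 29600 to 31000 CPM). At day 6, 4 of 11 tested markers were called higher and none lower, with a median difference of 0.67 on the log2 scale, and Lep was at 0 in the DKO libraries. In the same libraries the 11 preadipocyte or fibroblast markers summed to 1740 to 2100 CPM in DKO and 3220 to 3970 CPM in WT, with 1 called higher and 4 lower of 10 tested. Over all genes tested at day 6, 5.03% were called higher and 6.53% lower. The part of these markers in the Ucp1 difference was not tested. In bulk RNA, a change in the share of cells that express a gene and a change in its RNA per cell cannot be told apart.

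Over time, the day 6 level of Ucp1 exceeded that of day 3 by 5.79 ± 0.72 on the log2 scale in WT (55.3-fold, edgeR adjusted p = 2.87e-06) and by 6.28 ± 0.61 in DKO preadipocytes (77.5-fold, edgeR adjusted p = 1.2e-07). Between these days 21.3% of genes were called higher in WT and 24.6% in DKO, from 1 fit of the 24 preadipocyte libraries. The sizes of both steps depended on single libraries of day 3: the WT step was 7.11 without WT replicate 3 of day 3 and the DKO step 5.62 without DKO replicate 1 of day 3, and both were still called (edgeR adjusted p = 1.79e-05 and 2.46e-07). Between days 0 and 3 the totals over 3 libraries went from 3 to 13 counts in WT, a ratio of 4.08 after scaling to depth (exact 95% interval 1.12 to 22.3, counting error only), which was not called (edgeR adjusted p = 0.401; 10.4% of genes were called higher). In DKO they went from 0 to 54 counts, at least 20-fold higher against a floor of 3 counts over the group, and this was called (edgeR adjusted p = 0.00369; 12.5% of genes were called higher). From day 6 to day 9 Ucp1 was lower by 0.68 ± 0.48 in WT and 0.77 ± 0.45 in DKO on the log2 scale, and neither difference was called (edgeR adjusted p = 0.333 and 0.25). The 3 WT libraries of day 9 lay below the 3 of day 6, as they did for 23.4% of genes, and the DKO libraries overlapped. The order of the Ucp1 means in preadipocytes was therefore day 0, day 3, and then days 9 and 6. The test did not separate days 6 and 9 in either genotype, and it separated days 0 and 3 in DKO only.

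In MEFs Ucp1 reached far lower levels. Over days 0, 4 and 8 the WT libraries held from 0 to 10 counts and the DKO libraries from 0 to 30 counts. At day 12 the WT libraries stood at 0.706, 0.974 and 0.867 CPM (16, 30 and 22 counts) and the DKO libraries at 2.05, 1.59 and 1.53 CPM (55, 35 and 32 counts), with all DKO libraries above all WT libraries, as for 23.9% of genes. The day 12 difference of 1.01 ± 0.29 on the log2 scale (2.02-fold, edgeR adjusted p = 0.0119) was called, in a comparison that called 3.92% of genes higher and 7.98% in either direction. The call was lost without DKO replicate 1 (0.86, edgeR adjusted p = 0.0637) and in 1 fit over all days (1.04, edgeR adjusted p = 0.565), and over the alternatives the adjusted p ran from 0.00751 to 0.565. At days 4 and 8 the fit over all days gave 1.44 ± 1.28 and 1.66 ± 0.98 (edgeR adjusted p = 0.802 and 0.563), where 0.0905% and 0.0595% of genes were called in the fits of those days.

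From day 8 to day 12 Ucp1 rose in neither MEF genotype by the test (WT 1.88 ± 0.97, edgeR adjusted p = 0.147, and DKO 1.26 ± 0.84, edgeR adjusted p = 0.249), and no earlier step was called. The DKO totals of days 0 and 4 were 2 and 14 counts, a ratio of 8.77 after scaling to depth (exact 95% interval 2.01 to 79.5, counting error only). The order of the means was the order of the days, with no pair of consecutive days separated by the test. At day 12 the adipocyte markers summed to 25000 to 26800 CPM in DKO MEFs and 16600 to 17000 CPM in WT (1.52-fold), and 9 of 12 were called higher with a median of 0.69 on the log2 scale. Over all genes tested at that day, 3.92% were called higher. The part of the markers in the Ucp1 and Ucp3 differences of MEFs was not tested.

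**Figure D2:**
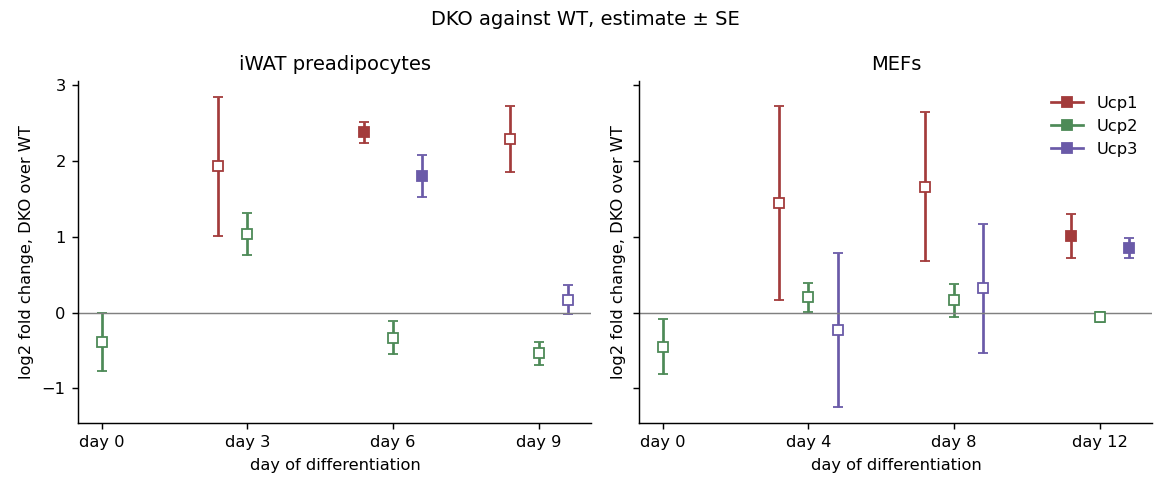
Difference between DKO and WT on the log2 scale with its SE for each gene and day in preadipocytes and MEFs, where filled points were called and open points were not. Filled points stand at Ucp1 of preadipocyte day 6 (2.38) and MEF day 12 (1.01) and at Ucp3 of preadipocyte day 6 (1.80) and MEF day 12 (0.85), and no point of Ucp2 is filled.

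Ucp3 stayed at trace levels until late in both cell types. Preadipocytes of day 0 held 0 counts in all 6 libraries, and at day 3 the counts were 0, 0 and 1 in WT and 0, 2 and 1 in DKO libraries. At day 6 the WT libraries stood at 0.369, 0.372 and 0.263 CPM (9, 9 and 6 counts) and the DKO libraries at 1.27, 1.17 and 1.14 CPM (26, 20 and 24 counts), which did not overlap. By day 9 the WT libraries had 4.08, 4.81 and 6.16 CPM and the DKO libraries 5.23, 5.85 and 6.32 CPM, and the ranges overlapped. The genotypes thus differed at day 6 by 1.80 ± 0.28 on the log2 scale (3.47-fold, edgeR adjusted p = 0.0062), a call where 5.03% of genes were called higher and 23.4% had all DKO libraries above all WT libraries, and at day 9 by 0.17 ± 0.19 (edgeR adjusted p = 0.581). The day 6 difference rests on 24 WT and 70 DKO counts.

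The rise of Ucp3 from day 6 to day 9 was called in both genotypes: 3.91 ± 0.35 on the log2 scale in WT (15-fold, edgeR adjusted p = 2.62e-06) and 2.28 ± 0.31 in DKO preadipocytes (4.87-fold, edgeR adjusted p = 0.00014). Over that step Ucp1 and Ucp2 showed no called change, and 8.69% (WT) and 7.49% (DKO) of genes were called higher. From day 3 to day 6 the Ucp3 totals went from 1 to 24 counts in WT (ratio 23 after scaling to depth, exact 95% interval 3.75 to 946) and from 3 to 70 in DKO (ratio 29.4, interval 9.64 to 146), and both were called (edgeR adjusted p = 6.75e-05 and 3.93e-07). Over this step 21.3% of all genes were called higher in WT and 24.6% in DKO. The ordered levels of Ucp3 in preadipocytes were days 0 and 3, both at the floor, then day 6, then day 9, with each of the last steps called.

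In MEFs Ucp3 held 0, 1 and 0 counts in WT and 0, 4 and 1 in DKO libraries at day 0. Counts were 10, 2 and 1 in WT and 0, 1 and 8 in DKO at day 4, and 8, 1 and 8 in WT and 16, 5 and 3 in DKO at day 8, with the genotypes overlapping at each of these days. At day 12 the WT libraries stood at 5.08, 5.48 and 6.23 CPM (115, 169 and 158 counts) and the DKO libraries at 9.51, 11.7 and 9.07 CPM (255, 257 and 190 counts), all DKO above all WT. The difference was 0.85 ± 0.13 on the log2 scale (1.80-fold, edgeR adjusted p = 0.000101), a call where 3.92% of genes were called higher and 23.9% had all DKO libraries above all WT libraries. In 1 fit over all days it kept its size (0.87) and lost the call (edgeR adjusted p = 0.447), and over the alternatives the adjusted p ran from 1.08e-09 to 0.447. The step from day 8 to day 12 was called in WT (4.50 ± 0.73, 22.6-fold, edgeR adjusted p = 0.000123) and in DKO (5.05 ± 0.71, 33.2-fold, edgeR adjusted p = 1.89e-05), where 12.9% and 15.3% of genes were called higher. Without DKO replicate 1 of day 8, which held 16 of the 24 DKO counts, the DKO step was 6.20 (edgeR adjusted p = 2.15e-05). From day 4 to day 8 the steps of 0.91 ± 0.92 in WT and 1.46 ± 0.94 in DKO were not called (edgeR adjusted p = 0.58 and 0.439).

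Because UCP3 is a muscle protein, 14 skeletal muscle markers were read in the same libraries. Their summed level in preadipocytes was 2.76 to 5.29 CPM in WT and 3.46 to 5.82 CPM in DKO at day 6, with Myod1, Myog, Myf5, Ckm, Myh4 and Chrna1 at 0 in both groups and none of 3 tested markers called. At day 9 it was 4.12 to 12.5 CPM in WT, with Myod1, Myf5, Myh3 and Myh4 at 0, and 2.57 to 9.7 CPM in DKO, with Myod1, Myf5, Ckm, Myh4 and Chrna1 at 0. In MEFs of day 12, where Ucp3 was higher in DKO, the summed level was lower in DKO (12 to 24.5 CPM) than in WT (32.6 to 36.3 CPM). Desmin (Des), which holds most of that sum, averaged 16 CPM in DKO and 31.5 CPM in WT (edgeR adjusted p = 0.1), and 1 of 5 tested markers, Myh3, was called higher. Over all genes tested at that day, 3.92% were called higher. Myod1 was at 0 in both groups, Myf5 and Chrna1 in WT, and Ckm and Myh4 in DKO.

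Ucp2 was the member that cells expressed before differentiation. In preadipocytes of day 0 the WT libraries stood at 8.66, 8 and 5.1 CPM and the DKO libraries at 7.79, 6.1 and 2.82 CPM, with overlap. At day 3 the WT libraries had 6.89, 15.4 and 9.26 CPM and the DKO libraries 23.3, 23.2 and 19.1 CPM, with all DKO above all WT. At day 6 the order was mixed, at 129, 203 and 176 CPM in WT and 165, 104 and 140 CPM in DKO. By day 9 the WT libraries stood at 149, 225 and 210 CPM and the DKO libraries at 139, 141 and 131 CPM, with all DKO below all WT.

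None of these genotype differences of Ucp2 was called. On the log2 scale they were -0.39 ± 0.38 at day 0 (edgeR adjusted p = 0.829), 1.04 ± 0.28 at day 3 (edgeR adjusted p = 0.218), -0.33 ± 0.22 at day 6 (edgeR adjusted p = 0.322) and -0.54 ± 0.15 at day 9 (edgeR adjusted p = 0.0886). At days 0 and 3, 0.218% and 0.337% of genes were called. The separation of libraries seen for Ucp2 was shared by 12.5% of genes at day 3, DKO higher, and by 12.8% at day 9, DKO lower. Over the alternatives the adjusted p ran from 0.018 to 0.563 at day 3 and from 0.0169 to 0.283 at day 9, and DESeq2 called the day 3 difference (1.03, adjusted p = 0.018). Without WT replicate 1, the lowest WT library of day 9, the difference was -0.70 and was called (edgeR adjusted p = 0.0454).

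Over time, Ucp2 had called rises from day 0 to day 3 and from day 3 to day 6 in DKO preadipocytes, and from day 3 to day 6 in WT. Over these steps 12.5% and 24.6% of all genes were called higher in DKO, and 21.3% in WT. From day 0 to day 3 Ucp2 changed by 0.46 ± 0.32 in WT (edgeR adjusted p = 0.267) and by 1.87 ± 0.31 in DKO (3.66-fold, edgeR adjusted p = 9.39e-05). From day 3 to day 6 it rose by 4.06 ± 0.33 in WT (16.7-fold, edgeR adjusted p = 6.6e-09) and by 2.73 ± 0.30 in DKO (6.62-fold, edgeR adjusted p = 2.86e-07). From day 6 to day 9 it moved by 0.23 ± 0.28 and 0.02 ± 0.28, neither called (edgeR adjusted p = 0.608 and 0.977). The direct test of the unequal steps gave 1.41 ± 0.44 for day 3 against day 0 (edgeR adjusted p = 0.375) and -1.33 ± 0.41 for day 6 against day 3 (edgeR adjusted p = 0.134), with 0.0948% and 0.51% of genes called. DESeq2 called the second of these (-1.34, adjusted p = 0.0452), and over its alternatives the adjusted p ran from 0.0452 to 0.276.

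Markers of macrophages and leukocytes, cells in which Ucp2 is abundant, were read in the same libraries. In preadipocyte cultures the summed level of the 15 markers was 166 to 585 CPM in WT and 47.6 to 438 CPM in DKO at day 0, and 82.7 to 317 and 73.2 to 275 CPM at day 3. It stood at 8780 to 14400 CPM in WT and 2950 to 7180 CPM in DKO at day 6, and at 4470 to 9020 and 1920 to 4560 CPM at day 9. From day 3 to day 6 all 15 markers were called higher in WT and in DKO, over the same step as the 16.7-fold and 6.62-fold rises of Ucp2. Over all genes, 21.3% were called higher in WT and 24.6% in DKO. From day 0 to day 3 in DKO, where Ucp2 had its called 3.66-fold rise, the mean marker sum was 258 and then 199 CPM. From day 6 to day 9 the mean sums were 12500 and then 6980 CPM in WT and 5030 and then 3060 CPM in DKO, while mean Ucp2 was 169 and 195 CPM in WT and 136 and 137 CPM in DKO. None of the 15 was at 0 in any group.

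Between genotypes the summed level of these markers was 2.48-fold higher in WT than in DKO at day 6 and 2.28-fold at day 9. The macrophage lysozyme gene Lyz2 (lower in DKO by 1.45 on the log2 scale) and the lymphocyte and macrophage antigen gene Cd52 (lower by 0.91) were called at day 6, with a list median of -1.10. At day 9 only Cd52 of the 15 was called (-1.35, list median -1.18). Over all genes tested, 6.53% were called lower at day 6 and 0.776% at day 9. Mean levels at day 6 were 6600 CPM in WT and 2430 CPM in DKO for Lyz2, 2310 and 955 CPM for the mannose receptor gene Mrc1, and 149 and 80.5 CPM for Adgre1, which encodes F4/80. The part of these cells in the Ucp2 levels of either genotype was not tested.

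**Figure D3:**
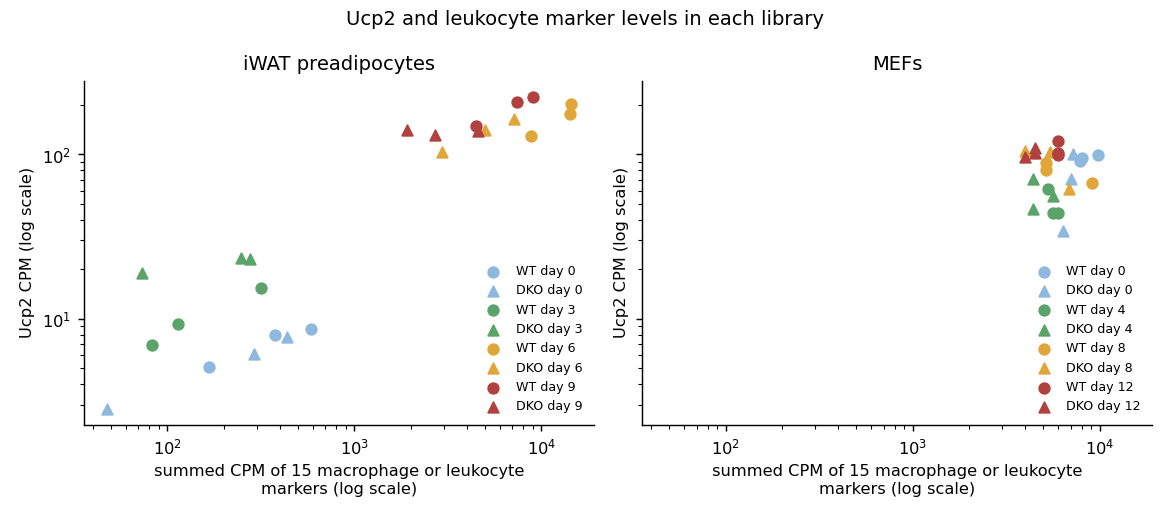
Ucp2 level in each library (vertical log axis, CPM) against the summed level of 15 macrophage and leukocyte markers in the same library (horizontal log axis, CPM), by cell type, genotype and day. Preadipocyte libraries of days 0 and 3 lie at low marker sums (47.6 to 585 CPM), and those of days 6 and 9 lie with the MEF libraries at sums from 1920 to 14400 CPM.

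In MEFs Ucp2 was already at 90.9, 99.7 and 95 CPM in WT libraries of day 0 and at 71.2, 34.3 and 101 CPM in DKO libraries, where replicate 2 stood apart. WT libraries fell to 61.4, 43.9 and 44.1 CPM at day 4, a called step of -1.03 ± 0.28 on the log2 scale (2.05-fold lower, edgeR adjusted p = 0.00507; 17.7% of genes were called lower). In DKO libraries, at 55.7, 46.6 and 71 CPM on day 4, the step of -0.38 ± 0.28 was not called (edgeR adjusted p = 0.281; 28.3% of genes were called in either direction). Without DKO replicate 2 of day 0 it was -0.71 and was called (edgeR adjusted p = 0.0128), and over the alternatives the adjusted p ran from 0.0128 to 0.962.

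Later MEF levels of Ucp2 were 80.4, 67.5 and 89.2 CPM in WT and 105, 104 and 61.5 CPM in DKO at day 8, and 121, 102 and 99.8 CPM in WT and 110, 97.1 and 102 CPM in DKO at day 12. The genotypes overlapped on every day. Their differences on the log2 scale were -0.45 ± 0.36, 0.20 ± 0.19, 0.16 ± 0.22 and -0.06 ± 0.07 at days 0, 4, 8 and 12 (edgeR adjusted p = 0.651, 0.861, 0.879 and 0.576; 0.102% of genes were called at day 0). Of these, the day 12 difference had the smallest SE. The steps from day 4 to 8 and from day 8 to 12 were not called in WT (0.67 and 0.53, edgeR adjusted p = 0.193 and 0.153) or DKO (0.65 and 0.31, edgeR adjusted p = 0.251 and 0.401), where 0.406% and 0.341% of genes were called from day 4 to day 8. The order of the WT means was day 4 (49.8 CPM), day 8 (79.1), day 0 (95.2) and day 12 (108 CPM), with only the step from day 0 to day 4 separated by the test among consecutive days. The 15 leukocyte markers summed to 7890 to 9820 CPM in WT MEFs of day 0 and 5300 to 6020 CPM at day 4. Over that step 13 of them were called lower, as were 17.7% of all genes. The part of these markers in the Ucp2 step was not tested.

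The 2 kinds of culture differed most in Ucp2 before differentiation and in Ucp1 after it. These comparisons join cell type with culture surface, mouse age and length of differentiation, which cannot be told apart. WT preadipocytes of day 0 had 13.9-fold less Ucp2 than WT MEFs of day 0 (-3.80 ± 0.17 on the log2 scale, edgeR adjusted p = 4.2e-06), with 38.6% of genes called. The leukocyte markers of the same libraries summed to 166 to 585 CPM in preadipocytes and 7890 to 9820 CPM in MEFs, and their part was not tested.

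On the last day, day 9 of preadipocytes against day 12 of MEFs, Ucp1 was higher in preadipocytes by 2.86 ± 0.21 in WT (7.27-fold, edgeR adjusted p = 5.41e-07) and by 4.17 ± 0.48 in DKO (18.1-fold, edgeR adjusted p = 0.000777). In these comparisons 32.6% and 27.3% of genes were called. Ucp2 was higher in preadipocytes by 0.84 ± 0.18 in WT (1.79-fold, edgeR adjusted p = 0.0128), a call. In DKO it was higher by 0.40 ± 0.07, a fold of 1.32 that is under the 1.5 required (edgeR adjusted p = 0.00363). Ucp3 differed by -0.17 ± 0.17 in WT (edgeR adjusted p = 0.381) and was lower in DKO preadipocytes than in DKO MEFs by 0.81 on the log2 scale (SE 0.15, 1.76-fold, edgeR adjusted p = 0.00403), which was called.

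To set the 3 genes beside each other, each level was divided by the length of the gene's merged exons and given as a share of the sum of the 3. In WT preadipocytes Ucp2 led at every day, with 78.8% (77.8% to 80.6% over 3 libraries) at day 6 and 83.5% at day 9, while Ucp1 held 20.8% and 11.7%. In DKO preadipocytes Ucp1 held 62.6% at day 6 (54.8% to 71.5%) and 45% at day 9 (29.6% to 60.1%), and Ucp2 held 36.7% and 50.3%. In CPM per kilobase of merged exons, the DKO means were 33.3 for Ucp1 and 19.5 for Ucp2 at day 6, and 19.5 and 19.6 at day 9. The WT means were 6.33 and 24.2 at day 6 and 3.87 and 27.9 at day 9.

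Which gene led in DKO preadipocytes depended on the length used, since Ucp2 has long alternative exons. The ratio of Ucp1 to Ucp2 at DKO day 6 was 1.81 per kilobase of merged exons, 1.03 per kilobase of the longest transcript and 0.427 per coding kilobase, and at day 9 it was 1.01, 0.575 and 0.237. The contrast between genotypes does not depend on the length, because the same length divides both: the Ucp1 to Ucp2 ratio in CPM was 0.0557 to 0.0651 in WT libraries of day 6 and 0.288 to 0.603 in DKO libraries, and 0.0306 to 0.0345 against 0.108 to 0.391 at day 9. In MEFs of day 12 Ucp2 held 86.9% in WT and 77.5% in DKO per merged kilobase, Ucp3 10.2% and 17%, and Ucp1 2.96% and 5.52%. Ucp3 exceeded Ucp1 in all 6 MEF libraries of day 12, by 4.64 to 7.36 times in CPM, whereas in preadipocytes of day 9 it stood at 0.646 to 0.96 times Ucp1 in WT and 0.123 to 0.385 times in DKO. No test was run on these shares. The leukocyte marker sums were higher in WT than in DKO preadipocytes, 2.48-fold at day 6 and 2.28-fold at day 9. Their part in these shares and ratios was not tested.

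**Figure D4:**
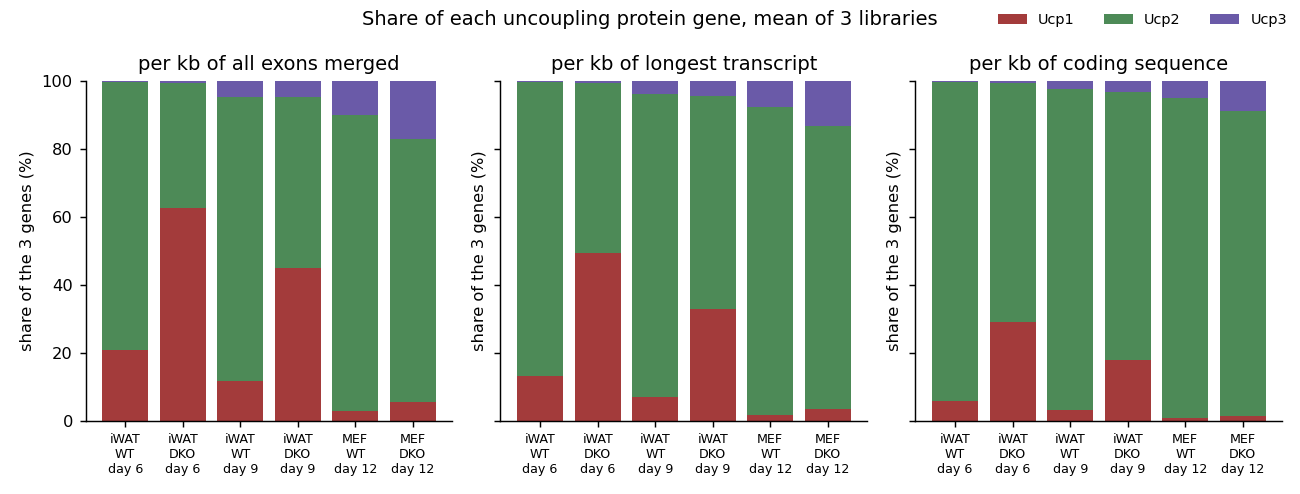
Share of Ucp1, Ucp2 and Ucp3 in their summed level per kilobase (bars from 0 to 100%, mean of 3 libraries) by cell type, genotype and day. Separate panels use the merged exons, the longest transcript and the coding sequence as the length. Per kilobase of merged exons, Ucp1 takes 62.6% in DKO preadipocytes of day 6 and 20.8% in WT. In that DKO group Ucp1 takes 49.3% per kilobase of the longest transcript and 29.1% per coding kilobase. Ucp2 takes at least 77.5% in each MEF group of day 12.

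Whether the genotype difference itself changed between days was tested for each member in the fit of 24 libraries. None of these changes was called. For Ucp1 in preadipocytes they were 0.49 ± 1.19 from day 3 to day 6 and -0.09 ± 0.65 from day 6 to day 9 (edgeR adjusted p = 0.89 and 1). For Ucp3, called at day 6 and not at day 9, the change was -1.62 ± 0.45 (edgeR adjusted p = 1). Over that step edgeR called 0 of 16877 genes and DESeq2 2, although 746 (4.42%) had an unadjusted edgeR p under 0.05. In MEFs edgeR called 1 gene at day 4 against day 0 (0.00588% of genes) and 1 at day 12 against day 8. At day 8 against day 4 edgeR and DESeq2 called 0, with 542 genes (3.19%) at an unadjusted edgeR p under 0.05.

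Genes that act with the uncoupling proteins were read from 5 lists. The list of adrenergic signalling and lipolysis shares Lipe, Plin1 and Pnpla2 with the adipocyte markers, so its counts and those of the markers are not separate readings. At preadipocyte day 6 the brown adipocyte genes followed Ucp1: of 19, 15 were tested, 9 were called higher in DKO and none lower, with a median of 1.20 on the log2 scale against -0.01 over all genes. Over all genes tested, 5.03% were called higher and 6.53% lower. The muscle-type carnitine palmitoyltransferase gene Cpt1b, which admits fatty acids to mitochondria, rose from 43.5 CPM in WT to 175 CPM in DKO (1.99 ± 0.17, edgeR adjusted p = 0.00169). Mpzl2 (2.14, edgeR adjusted p = 0.00247), the coenzyme A synthesis gene Pank1 (1.58, edgeR adjusted p = 0.00303) and the fatty acid binding protein gene Fabp3 (1.91, edgeR adjusted p = 0.0039) were next by p. Of 16 fatty acid oxidation genes 8 were called higher and none lower (median 0.64), with the thioesterase gene Acot2 from 8.84 to 28.9 CPM (1.69, edgeR adjusted p = 0.00277), the trifunctional protein gene Hadhb from 630 to 1250 CPM (0.97, edgeR adjusted p = 0.00442), and Acadm and Slc25a20 each at 0.78.

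Fewer genes of the upstream lists passed at that day, when 5.03% of all genes tested were called higher and 6.53% lower. Of 21 regulators of Ucp1 transcription 3 were called higher and none lower (median 0.39). They were the coactivator gene Ppargc1a (26.2 CPM in WT, 45.9 CPM in DKO, 0.79 ± 0.13, edgeR adjusted p = 0.00696), the fatty acid receptor gene Ppara (31.2 and 87.2 CPM, 1.47 ± 0.24, edgeR adjusted p = 0.0111) and the orphan receptor gene Esrrg (0.772 and 2.48 CPM, 1.67 ± 0.32, edgeR adjusted p = 0.0112). Of 15 genes of adrenergic signalling and lipolysis 2 were called higher (median 0.36), the lipid droplet gene Plin5 (38 and 86.2 CPM, 1.16 ± 0.15, edgeR adjusted p = 0.00455) and the hormone-sensitive lipase gene Lipe (945 and 1580 CPM, 0.72 ± 0.14, edgeR adjusted p = 0.0118). Of 8 tested carriers of the SLC25 family other than the members, edgeR, DESeq2 and limma-voom each called 0 (median 0.21), and 4 had an unadjusted edgeR p under 0.05. At that day 37.2% of all genes tested had such a p.

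At preadipocyte day 9 fewer list genes were called, as over all genes, of which edgeR called 1.24%. Brown adipocyte genes had 2 of 16 called higher, the fatty acid elongase gene Elovl3 (1.00 ± 0.09, edgeR adjusted p = 0.00463) and Cpt1b (0.82, edgeR adjusted p = 0.0427), and a median of 0.82. Fatty acid oxidation genes had 1 of 16, Acot2 (0.87, edgeR adjusted p = 0.0289), and a median of 0.47. edgeR called 0 of 20 regulators (median 0.30), 0 of 15 adrenergic and lipolysis genes (median 0.33) and 0 of 8 carriers (median 0.17), of which 10, 8 and 4 had an unadjusted p under 0.05. DESeq2 called 7 brown adipocyte genes, 3 fatty acid oxidation genes, 1 regulator, 2 adrenergic and lipolysis genes and 0 carriers, all higher. Over all genes at day 9, DESeq2 called 5.63%, and 27.1% had an unadjusted edgeR p under 0.05. At day 3 edgeR and limma-voom called 0 genes of these lists, although the adrenergic and lipolysis genes had a median of 1.02, with 9 of 14 at an unadjusted edgeR p under 0.05. DESeq2 called 8 of those 14 higher at day 3, with 4 regulators, 4 fatty acid oxidation genes, 2 brown adipocyte genes and 1 carrier. Over all genes at day 3, DESeq2 called 2.7% and edgeR 0.337%, and 12.2% had an unadjusted edgeR p under 0.05. At day 0 none of the 3 tools called a list gene, and 3 of 17 regulators, 1 of 14 adrenergic and lipolysis genes and 1 of 8 carriers had an unadjusted edgeR p under 0.05. At that day 7.86% of all genes tested had such a p.

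In MEFs of day 12, adrenergic signalling and lipolysis had 8 of 15 called higher and none lower (median 0.59, against 0.00 over all genes), led by Mgll (177 to 286 CPM, 0.69, edgeR adjusted p = 3.02e-08), Abhd5 (0.59), the adipose triglyceride lipase gene Pnpla2 (1150 to 1910 CPM, 0.73) and Plin5 (0.71). Brown adipocyte genes were split, with 5 called higher and 3 lower of 16 (median 0.23). Over all genes tested, 3.92% were called higher and 4.05% lower. Those higher were led by Elovl3 (111 to 268 CPM, 1.27 ± 0.04, edgeR adjusted p = 8.03e-12), the potassium channel gene Kcnk3 (10.6 to 33.4 CPM, 1.65 ± 0.10), Cpt1b (31.5 to 60.1 CPM, 0.93) and the cytochrome oxidase gene Cox7a1 (6.51 to 13.1 CPM, 1.00). Those lower, named after their values were seen, were the thyroid hormone deiodinase gene Dio2 (6.6 to 3 CPM, -1.14 ± 0.15), Fabp3 (6.35 to 3.13 CPM, -1.02 ± 0.16) and Ntrk3 (14.4 to 8.94 CPM, -0.69 ± 0.10). Fabp3 was thus called higher in DKO preadipocytes of day 6 and lower in DKO MEFs of day 12.

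Among regulators in MEFs of day 12, 2 of 20 were called higher and 2 lower (median 0.18). Over all genes tested on that day, 3.92% were called higher and 4.05% lower. Ppargc1b, a second coactivator gene of this family, was higher (9.36 to 17.1 CPM, 0.86 ± 0.12, edgeR adjusted p = 6.3e-05), as was Ppara (11.3 to 24.9 CPM, 1.13 ± 0.20, edgeR adjusted p = 0.00603). The brown fat determination genes Prdm16 (9.9 to 6.49 CPM, -0.61, edgeR adjusted p = 0.00047) and Ebf2 (5.8 to 3.69 CPM, -0.67, edgeR adjusted p = 0.0217) were lower. Fatty acid oxidation had 3 called higher, Hadhb (0.59), Cpt2 (0.66) and Acot2 (0.71), and 1 lower, of 16 (median 0.48). Of 8 carriers, the dicarboxylate carrier gene Slc25a10 was called higher (168 to 255 CPM, 0.61). At days 0, 4 and 8 edgeR, DESeq2 and limma-voom called no list gene in MEFs, and at most 3 genes of any list had an unadjusted edgeR p under 0.05. Over all genes tested, 9.28%, 5.91% and 8.57% had such a p at those days. Adipocyte markers were also higher in these DKO libraries (1.38-fold at preadipocyte day 6 and 1.52-fold at MEF day 12, above), and their part in the list counts was not tested.

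The balance of calls over all genes depended on the scaling, and the list calls mostly did not. At preadipocyte day 6, 739 genes were called higher and 960 lower, and with library size alone in place of TMM 502 and 1244, with the median over all genes moved to -0.11. At MEF day 12 the split was 601 higher and 621 lower, and with library size alone 479 and 765. With library size alone at preadipocyte day 6 the brown adipocyte list still had 9 called higher, the regulators 3 and the fatty acid oxidation list 8, and 1 fatty acid oxidation gene was then called lower.

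**Figure D5:**
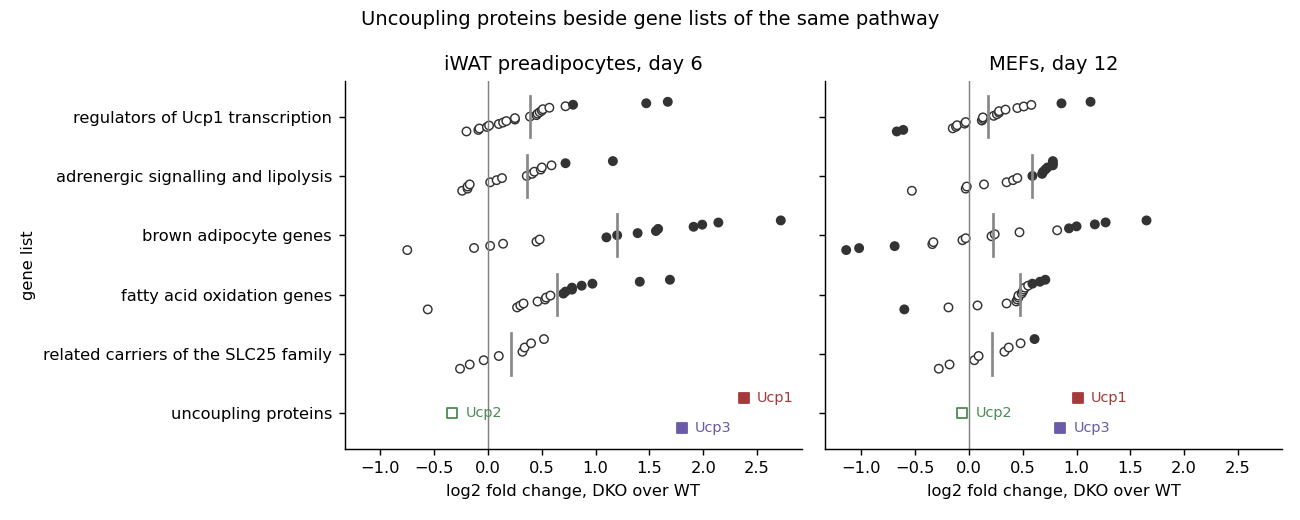
Difference between DKO and WT on the log2 scale for each tested gene of the 5 lists at preadipocyte day 6 and MEF day 12, with called genes filled and the list median as a bar. The brown adipocyte genes have their median at 1.20 at preadipocyte day 6 and 0.23 at MEF day 12, where called genes lie on both sides of 0.

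The genes whose levels followed each member most closely were found by Pearson's r of log2(CPM + 0.5) over the 24 libraries of a cell type. The libraries share their days and genotypes, so these values describe likeness of pattern and carry no test. Among 16877 genes in preadipocytes, the 5 nearest to Ucp1 were Pdss2, Mrpl19, Vps25, Afg3l2 and Mrpl3 (r from 0.986 to 0.987; median over all genes -0.095). Pdss2 makes the side chain of coenzyme Q, Mrpl19 and Mrpl3 are proteins of the mitochondrial ribosome, and Afg3l2 is a protease of the inner mitochondrial membrane. Those nearest to Ucp2 were Tspan12, Itga6, Dock10, Cat and Coq5 (0.978 to 0.984), and among the 5 nearest to Ucp3 were Chdh, Lrrc39, Slc9a2 and Als2cr12 (0.978 to 0.989).

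Among 16996 genes in MEFs, the nearest to Ucp1 were Ffar4, Letm1, Scarb1, Acbd4 and Cnst (0.965 to 0.980), with the fatty acid receptor gene Ffar4 at 0.980 in MEFs and 0.976 in preadipocytes. The nearest to Ucp2 in MEFs were Dnm2, Mrc1, Higd2a, Ap1b1 and Vapb (0.911 to 0.943), and Mrc1, the macrophage mannose receptor gene among the 15 leukocyte markers, had 0.930 in MEFs and 0.954 in preadipocytes. The likeness of Dock10 to Ucp2 was 0.981 in preadipocytes and -0.583 in MEFs. The nearest to Ucp3 in MEFs were Apoc3, Tmem182, Agpat3, Angptl8 and Lrrc39 (0.984 to 0.993). Lrrc39 was the only gene listed for the same member in both cell types, at 0.982 in preadipocytes and 0.984 in MEFs.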

How the data were processed

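Paired-end strand-specific RNA-seq was deposited as 2 tables of expected counts per gene, 1 per cell type, which the authors made with STAR 2.7.0f and RSEM 1.3.0 on mm10 after Cutadapt 1.18 and bcl2fastq 2.17. The annotation used for counting is not given in the sources used here, and all 55450 gene identifiers matched GENCODE M21, from which positions were taken. Expected counts divide reads that fit several genes, and they were rounded to whole numbers here. Members and gene lists were chosen with earlier results of these data known.

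Genotypes were compared per day with edgeR 4.0.16 (R 4.3.3), using filterByExpr, TMM factors and the robust quasi-likelihood test on 6 libraries. Days, and changes of the DKO effect between days, came from 1 fit of the 24 libraries of a cell type, and cell types from 6-library fits. P-values were adjusted (Benjamini-Hochberg) over all genes tested. The SE of an edgeR log2 difference is its absolute size divided by the square root of the quasi-likelihood F statistic. Ucp2 passed the filter in all 8 genotype fits. Ucp1 and Ucp3 passed at preadipocyte days 6 and 9 and MEF day 12, so values for their other days come from the 24-library fit, an alternative chosen after seeing the data, as was the coding length. No fold is given where a group held 3 counts or fewer in all; an exact conditional interval stands there.

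Alternatives were DESeq2 1.42.0, limma-voom 3.58.1 with quantile normalization, library size alone, other filters, other sets of libraries, the replicate block, other gene lengths and leaving out each library. Same-numbered libraries were checked for pairing by the correlation of their deviations from group means over 17949 genes, and every correlation exceeded 0.1 in WT preadipocytes at day 9 against day 6 (0.120 to 0.435) and in DKO preadipocytes at day 3 against day 0 (0.393 to 0.554) and day 9 against day 6 (0.356 to 0.442), but in no genotype comparison. No 2 replicates agreed within sampling noise (lowest chi-square per degree of freedom 2.16).

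The text names the members in every comparison, up to 4 called genes of each list by p at preadipocyte day 6 and MEF day 12, the 5 genes most like each member, and the 3 nearest protein-coding genes on each side. Some genes that this rule covers are not reported here. Markers are given as sums and counts. Promoters came from RefSeq (GRCm38.p6) and coding sequences from GENCODE transcripts on that assembly, aligned with Biopython 1.88. The scripts were tested on simulated counts.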

Additional observations from a re-analysis of the deposited data

How the results depend on the processing

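Of 378 refits of 67 member results under other settings, 366 kept the direction and the side of the threshold, and of 450 refits without 1 library, 419 did. DESeq2 called Ucp2 at preadipocyte day 3 (1.03), Ucp1 at day 9 (2.29) and the Ucp2 change of the DKO effect at preadipocyte day 6 against day 3 (-1.34). The fit over all days called Ucp1 at preadipocyte day 9 (2.32, edgeR adjusted p = 0.0106) and lost Ucp1 (1.04) and Ucp3 (0.87) at MEF day 12. Ucp1 at day 9 against day 6 was called in WT preadipocytes with only the libraries of those days (-0.70, edgeR adjusted p = 0.0139; range 0.0139 to 0.556) and in DKO by limma-voom (-0.93, adjusted p = 0.0254; range 0.0254 to 0.582). limma-voom also called Ucp1 in WT MEFs at day 12 against day 8 (2.57, adjusted p = 0.0491; range 0.0491 to 0.346), and with library size alone Ucp2 in DKO preadipocytes at day 9 against day 6 was -0.03. The cause was not tested in any of these.

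With replicate numbers as a block, Ucp2 of WT preadipocytes of day 9 against MEFs of day 12 was no longer called (0.82, adjusted p = 0.0655; range 6.17e-07 to 0.0655), and the uncalled Ucp2 change of the DKO effect in MEFs at day 8 against day 4 went from -0.02 to 0.02. Same-numbered libraries paired in none of these comparisons, and the block changed no call in the 3 comparisons where they did.

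Without 1 library, genotype differences ran from 1.78 to 2.62 (Ucp1, preadipocyte day 9), -0.70 to -0.42 (Ucp2, preadipocyte day 9), 0.86 to 1.13 (Ucp1, MEF day 12) and -0.11 to 0.03 (Ucp2, MEF day 12). Steps ran from -0.17 to 0.18 (Ucp2, DKO preadipocytes, day 9 against day 6), -0.38 to 3.84 (Ucp1, WT MEFs, day 4 against day 0), -0.71 to 0.02 (Ucp2, DKO MEFs, day 4 against day 0) and -1.34 to 2.48 (Ucp3, the same step). Changes of the DKO effect in preadipocytes ran from -0.89 to 1.06 and -0.60 to 0.24 (Ucp1, day 6 against 3 and day 9 against 6). In MEFs at day 8 against day 4 they ran from -0.54 to 3.18 (Ucp1), -0.19 to 0.19 (Ucp2) and -0.73 to 2.88 (Ucp3), and at day 12 against day 8 from -1.35 to 0.05 (Ucp1).

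Ratios of length-scaled levels to Ucp2 under the longest transcript and then the coding length were, for Ucp1, 0.151 and 0.0623 (WT day 6), 1.03 and 0.427 (DKO day 6), 0.0798 and 0.0329 (WT day 9) and 0.575 and 0.237 (DKO day 9) in preadipocytes, and 0.0195 and 0.00806 (WT) and 0.0406 and 0.0168 (DKO) in MEFs of day 12, with 0.00799 per coding length in DKO MEFs of day 8. For Ucp3 they were 0.0147 and 0.00907 (DKO day 6), 0.0424 and 0.0261 (WT day 9) and 0.069 and 0.0425 (DKO day 9) in preadipocytes, 0.0858 and 0.0528 (WT) and 0.16 and 0.0988 (DKO) in MEFs of day 12, and 0.00207 per coding length in WT preadipocytes of day 6. Genes called over all genes between genotypes ranged over the settings from 8 to 145 (33 as reported), 13 to 408 (51), 720 to 1896 (1699) and 20 to 1460 (183) at preadipocyte days 0, 3, 6 and 9, and from 3 to 529 (16), 5 to 91 (14), 2 to 97 (9) and 209 to 1322 (1222) at MEF days 0, 4, 8 and 12. At totals of 3 counts or fewer in a group, depth allows no fold for Ucp1 and Ucp3.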

Other observations

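The 3 nearest protein-coding genes on each side of the 2 loci (GENCODE M21) were read in the same fits. To the left of Ucp1 on chromosome 8 lie Tbc1d9 (17.4 kb away), Gm10645 and Rnf150, and to the right Elmod2 (14.2 kb), Mgat4d and Clgn. Ucp3 and Ucp2 on chromosome 7 lie between C2cd3 (2.8 kb from Ucp3), Ppme1 and P4ha3 on the left and Coa4 (35.1 kb from Ucp2), Mrpl48 and Rab6a on the right, with Dnajb13 overlapping Ucp2. Of these genes, those called between DKO and WT in any of the 8 genotype comparisons were Tbc1d9 and Dnajb13. Over all genes tested, 11.6% were called at preadipocyte day 6 and 7.98% at MEF day 12. Tbc1d9 was lower in DKO preadipocytes of day 6 (6.64 CPM in WT, 3.49 CPM in DKO, -0.93 ± 0.28 on the log2 scale, edgeR adjusted p = 0.0456) and in DKO MEFs of day 12 (12.1 and 7.97 CPM, -0.60 ± 0.12, edgeR adjusted p = 0.000769). Its mean was lower in DKO on the other days too, as at preadipocyte day 9 (7.91 and 2.92 CPM) and MEF day 0 (25.5 and 17.5 CPM). On those days its neighbour Ucp1 was not called. In the comparisons where Tbc1d9 was called lower in DKO, preadipocyte day 6 and MEF day 12, Ucp1 was called higher. Dnajb13 was higher in DKO preadipocytes of day 6 (0.519 and 1.53 CPM, 1.53 ± 0.31, edgeR adjusted p = 0.013), when Ucp2, with which it shares 256 stretches of 50 bases on the opposite strand, was not called.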
